A study of Homo sapiens with 11 samples.

Results

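Regions of H3K27ac that stood at the ends of protein-coding genes in every library of the pancreatic cancer line CFPAC1, and that carried no peak of the transcription factors MYRF or FOS, were described here. H3K27ac is the acetylation of histone H3 at lysine 27, a mark of active promoters and enhancers. Overlapping H3K27ac peaks of 4 libraries were merged, which gave 134465 regions, and 54063 of them held a peak of all 4 libraries. Of these, 52654 were under 6000 bp long, and 15331 of those overlapped a window of 1 kb either side of an annotated gene end (the start or the stop of a RefSeq protein-coding gene, GRCh38). No MYRF or FOS peak overlapped 11388 regions, which is 74.3% of the constant gene-end regions under the length limit, and these 11388 are called factor-free gene-end regions below. They were chosen by the presence of H3K27ac peaks and by the absence of MYRF and FOS peaks, so both are a description of the set and no result of it. Of the other constant gene-end regions under the limit, 2942 held FOS without MYRF, and 1001 held MYRF, 532 of them with FOS too. A further 19125 constant regions lay away from gene ends without either factor.

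The study mapped 3 targets by chromatin immunoprecipitation and sequencing in CFPAC1 and HPAF2, cell lines of human pancreatic ductal adenocarcinoma. H3K27ac was mapped in a genome-edited MYRF KO clone of CFPAC1 (2 libraries) and in a control clone with intact MYRF (2 libraries), both isolated by dilution from cells infected with the lentiCRISPRv2 plasmid, which carries Cas9. Each genotype is 1 clone, so the clone and the loss of MYRF cannot be told apart. FOS was mapped in a CFPAC1 control clone (2 libraries), and MYRF in the original CFPAC1 and HPAF2 lines with an antibody made by the submitters (2 libraries each). A region free of both factors is therefore free of peaks called in cells other than the KO clone. The lists hold peaks without read counts, and depth is unknown. The H3K27ac lists held 107586 and 110498 peaks in the MYRF KO clone, against 116466 and 109352 in the control clone. The MYRF lists held 3702 to 4743 peaks and the FOS lists 29087 and 36349, so the absence of a factor is the absence of a called peak. Constant H3K27ac regions lay at ends of the ductal epithelial markers KRT7, KRT8, KRT18, KRT19 and EPCAM. They lay at ends of 24 of the 29 keratin, claudin and desmosome genes listed, beside 12221 of 20033 protein-coding genes in all. KRT17, KRT20, KRT6A, CLDN18 and PKP1 were the listed genes without one.

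Promoters of genes that all cells use tend to lie in CpG islands, stretches rich in the dinucleotide CG, where nucleosomes on either side of the start are acetylated and the start itself is kept open by general factors such as SP1, NRF1, YY1, NFY and the ETS family. FOS is a subunit of AP-1, which binds TGA(C/G)TCA and acts largely at enhancers. MYRF is anchored in the membrane of the endoplasmic reticulum (ER) until it cuts itself and sets free a DNA-binding fragment, and it is best known for activating myelin genes in oligodendrocytes. The title of the study ties MYRF to ER homeostasis in pancreatic cancer cells.

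Promoters of 7 genes with a factor-free region, of 1 gene with FOS at its start and of the gene with one of the weakest factor-free regions are shown from RefSeq (GRCh38.p14), each 5′ to 3′ on the gene's strand from 250 bases before the start to 50 bases from it, 300 bases in all. They show examples of the motifs counted below. The letters marked in TCP1, HSPA5 and KRTAP3-1, and the CCAAT box of ADRM1, lie outside the factor-free region of the gene. Capitals mark matches on either strand to the motif named, and positions count from the start base as 0. In ADRM1 (chr20:62302646-62302945, plus strand), the ubiquitin receptor of the proteasome, they mark a GC box (GGGCGG, the letters of SP1 sites) at -57 and a CCAAT box (CCAAT, the letters of NFY sites) at -14. In DPM1 (chr20:50958483-50958782, minus strand), which makes the mannose donor for N-glycans, they mark ETS letters (CCGGAAG) at -17. In RPL10A (chr6:35468151-35468450, plus strand), a ribosomal protein gene, they mark overlapping NRF1 letters (GCGCATGC) at -20 and -18 and the ZBTB33 palindrome (TCTCGCGA) at -45. In NUP50 (chr22:45163675-45163974, plus strand), of the nuclear pore, they mark NRF1 letters at -56 and -54 and ETS letters at -8. In ANAPC7 (chr12:110403659-110403958, minus strand), of the anaphase-promoting complex, they mark YY1 letters (ATGGCGGC) at -6. In TCP1 (chr6:159789553-159789852, minus strand), a subunit of the chaperonin that folds actin and tubulin, they mark a CCAAT box at -154 and a GC box at -134. In HSPA5 (chr9:125241294-125241593, minus strand), the ER chaperone BiP, they mark CCAAT boxes at -216, -188, -99, -66 and 34 and AP-1 letters (TGANTCA, here TGAATCA) at -184. In MED17 (chr11:93784032-93784331, plus strand), a Mediator gene whose constant region held FOS, they mark AP-1 letters (here TGATTCA) at -49. In KRTAP3-1 (chr17:41009079-41009378, minus strand), a hair keratin-associated gene with one of the weakest factor-free regions, they mark TATA box letters (TATAAA) at -89. The run tatataag, nearer the start here and also present in HSPA5, does not match those letters and is unmarked.
ADRM1: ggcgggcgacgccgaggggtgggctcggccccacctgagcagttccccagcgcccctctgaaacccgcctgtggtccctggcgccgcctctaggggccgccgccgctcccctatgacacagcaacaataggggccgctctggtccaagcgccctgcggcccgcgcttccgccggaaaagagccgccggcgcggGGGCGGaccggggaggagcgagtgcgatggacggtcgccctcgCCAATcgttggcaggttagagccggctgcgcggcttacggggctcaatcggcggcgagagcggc
DPM1: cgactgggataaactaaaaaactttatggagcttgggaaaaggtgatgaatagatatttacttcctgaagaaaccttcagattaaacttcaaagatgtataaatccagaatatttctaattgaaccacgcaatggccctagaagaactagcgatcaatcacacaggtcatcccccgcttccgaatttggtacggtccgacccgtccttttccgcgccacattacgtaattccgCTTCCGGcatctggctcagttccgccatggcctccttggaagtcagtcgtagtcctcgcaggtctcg
RPL10A: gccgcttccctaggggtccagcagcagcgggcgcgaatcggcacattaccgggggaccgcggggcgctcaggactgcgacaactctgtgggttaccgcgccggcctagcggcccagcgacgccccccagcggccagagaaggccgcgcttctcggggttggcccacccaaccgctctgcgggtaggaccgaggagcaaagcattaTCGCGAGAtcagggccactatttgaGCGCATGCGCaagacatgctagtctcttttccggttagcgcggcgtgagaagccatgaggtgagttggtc
NUP50: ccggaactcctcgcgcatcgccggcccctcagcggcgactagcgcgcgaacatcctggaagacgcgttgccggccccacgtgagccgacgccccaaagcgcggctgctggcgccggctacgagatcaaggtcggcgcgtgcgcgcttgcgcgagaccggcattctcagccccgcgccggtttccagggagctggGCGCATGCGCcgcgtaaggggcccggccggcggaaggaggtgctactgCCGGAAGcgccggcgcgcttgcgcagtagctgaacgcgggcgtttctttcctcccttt
ANAPC7: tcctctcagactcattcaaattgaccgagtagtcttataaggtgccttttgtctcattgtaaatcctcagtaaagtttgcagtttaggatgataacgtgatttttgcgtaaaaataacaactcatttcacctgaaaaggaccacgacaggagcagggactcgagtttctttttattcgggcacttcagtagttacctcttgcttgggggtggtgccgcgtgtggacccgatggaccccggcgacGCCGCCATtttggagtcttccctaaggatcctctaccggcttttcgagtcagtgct
TCP1: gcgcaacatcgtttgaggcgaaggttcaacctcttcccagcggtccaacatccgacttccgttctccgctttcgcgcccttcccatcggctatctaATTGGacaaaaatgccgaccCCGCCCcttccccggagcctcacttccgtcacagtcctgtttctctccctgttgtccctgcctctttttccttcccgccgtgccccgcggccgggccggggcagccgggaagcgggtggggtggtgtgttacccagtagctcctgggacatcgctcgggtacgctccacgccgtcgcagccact
HSPA5: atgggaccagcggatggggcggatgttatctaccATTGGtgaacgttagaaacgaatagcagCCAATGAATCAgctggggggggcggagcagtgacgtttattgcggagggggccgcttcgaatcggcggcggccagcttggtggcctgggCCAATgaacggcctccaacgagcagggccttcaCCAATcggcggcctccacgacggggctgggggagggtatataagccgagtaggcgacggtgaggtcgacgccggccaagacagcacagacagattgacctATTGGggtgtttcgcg
MED17: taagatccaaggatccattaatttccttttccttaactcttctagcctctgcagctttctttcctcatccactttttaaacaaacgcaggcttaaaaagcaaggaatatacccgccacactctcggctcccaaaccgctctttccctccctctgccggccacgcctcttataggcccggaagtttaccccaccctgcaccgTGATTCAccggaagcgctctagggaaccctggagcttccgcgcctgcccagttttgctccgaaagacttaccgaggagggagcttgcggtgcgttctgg
KRTAP3-1: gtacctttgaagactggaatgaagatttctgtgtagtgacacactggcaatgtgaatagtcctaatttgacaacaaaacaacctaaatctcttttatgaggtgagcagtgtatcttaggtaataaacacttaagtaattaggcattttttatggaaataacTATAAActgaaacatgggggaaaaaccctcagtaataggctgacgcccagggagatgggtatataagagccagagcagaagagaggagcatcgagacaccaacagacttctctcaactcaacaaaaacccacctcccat

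The factor-free gene-end regions ranked high within each library, lower at the median than gene ends with FOS and higher than regions away from gene ends. Each region was given the percentile of its highest peak among all peaks of that list, by the authors' fold enrichment, a ratio over local background that was used only within a list. The median percentile was 81.6 and 78.1 in the MYRF KO libraries and 79.1 and 80.2 in the control libraries, at a median fold of 10.9 and 9.12 in the MYRF KO libraries and 9.45 and 10.6 in the control libraries. Constant gene ends with FOS and no MYRF had medians of 88.9 and 87.2 in the MYRF KO libraries and 87.5 and 87.9 in the control libraries. The difference, factor-free minus FOS, averaged -8.10 ± 0.77 percentile points (SD, n = 4 libraries) and was negative in 4 of 4 libraries. An exact two-sided sign-flip test gave p = 0.125, the smallest that 4 libraries allow. Factor-free regions were also the shorter, and among regions of 1000 to 2000 bp the same difference was -2.18 points (exact p = 0.125), an alternative chosen after seeing the data. Constant regions away from gene ends without either factor had median percentiles of 55.8 and 58.3 in the MYRF KO libraries and 60.1 and 59.6 in the control libraries. Factor-free gene ends exceeded them by 21.3 ± 3.04 points (SD, n = 4), higher in 4 of 4 libraries with an exact sign-flip p of 0.125, and by 13.5 points where only peaks with a -log10 q of at least 10 were used. These p-values reflect only that the difference had the same sign in 4 of 4 libraries, and they do not measure its spread. The labels do not say that replicates came from separate cultures, so the spread between libraries may be technical.

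**Figure D1:**
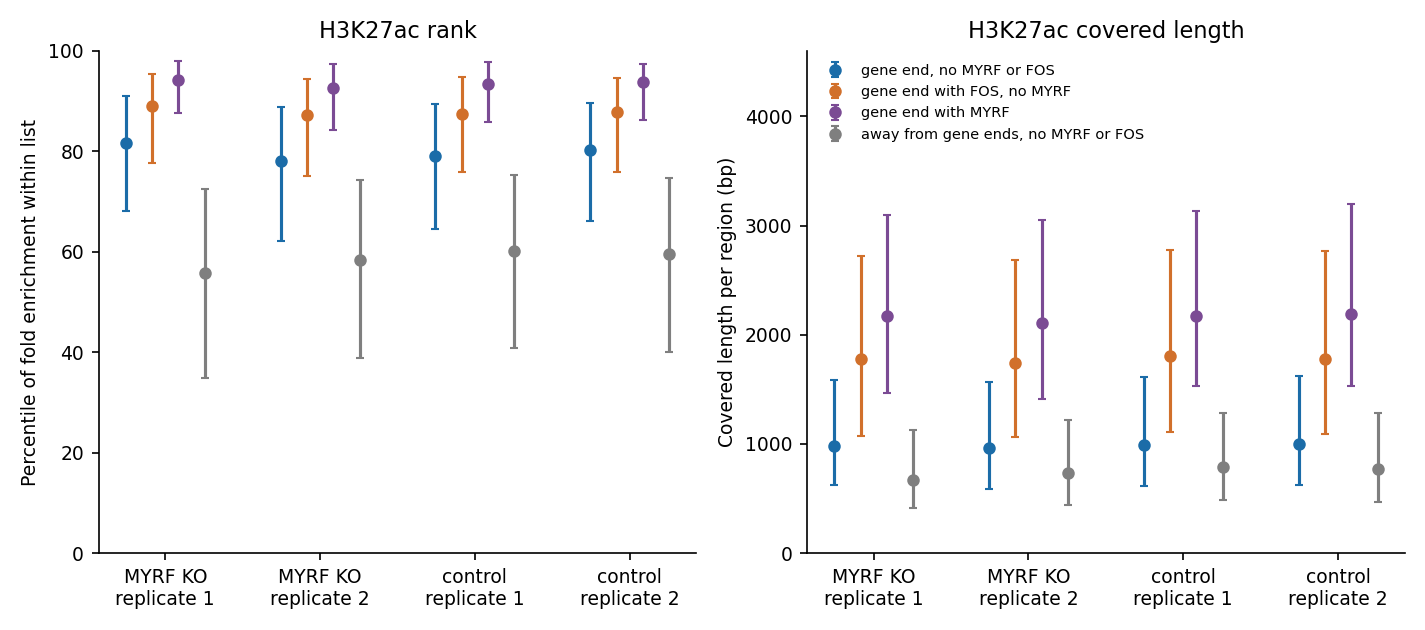
Percentile of fold enrichment within each list (left) and bases covered by peaks per region (right, bp) in 4 H3K27ac libraries, MYRF KO before control. Points are medians and bars the interquartile range over regions of each class. Factor-free gene ends sit between 78.1 and 81.6 at the median, below gene ends with FOS or MYRF and above regions away from gene ends.

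Factor-free regions were shorter than gene ends with FOS or MYRF and longer than factor-free regions away from gene ends. Their merged length had a median of 1190 bp (interquartile range 792 to 1864), against 2066 bp for gene ends with FOS 2467 bp for gene ends with MYRF and 1046 bp for regions away from gene ends without either factor. Peaks covered a median of 985 and 959 bp of each factor-free region in the MYRF KO libraries and 991 and 996.5 bp in the control libraries. Gene ends with FOS had 1780.5 and 1743.5 bp in the MYRF KO libraries and 1804.5 and 1781 bp in the control libraries, and factor-free regions away from gene ends had 674 and 733 bp in the MYRF KO libraries and 787 and 770 bp in the control libraries. The difference from gene ends with FOS averaged -794.5 ± 13.7 bp (SD, n = 4), negative in 4 of 4 libraries (exact sign-flip p = 0.125), and it was -95.5 bp where only regions of 1000 to 2000 bp were compared. A longer region offers more bases to overlap, and overlap with a factor peak was part of the rule, so region length and factor absence are linked by it. A single peak made up 79.8% and 76.7% of the factor-free regions in the MYRF KO libraries and 77.5% and 79.4% in the control libraries.

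The order of the factor-free regions was much alike from library to library. Spearman's rho between 2 libraries, taken over the 11388 regions as a description, lay between 0.755 (MYRF KO replicate 1 with MYRF KO replicate 2) and 0.807 (both control libraries). The pairs across clones lay within that range. A region's percentile spanned a median of 15.0 points over the 4 libraries. All 4 libraries placed 1259 regions (11.1%) among the highest 10% of their lists and 8588 (75.4%) above the list median, and 272 lay under the median in all 4.

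The strongest factor-free regions, by the lowest of their 4 percentiles, stood at genes of widely different work. The region of USP48, a deubiquitinating enzyme, led with fold enrichments of 41.6 and 32.7 in the MYRF KO libraries and 32.8 and 41.5 in the control libraries. It lay above percentile 99.9 of every list, at chr1:21781248-21784565. MSL1, the scaffold of an H4 acetyltransferase complex, followed at 35.2 and 32.7 in the MYRF KO libraries and 33.2 and 34.3 in the control libraries. PTGES3, the HSP90 co-chaperone p23, had 29.5 and 30.1 in the MYRF KO libraries and 32.2 and 36.2 in the control libraries, and its region stood 47.5 kb from the nearest FOS peak. ADRM1 had 32.4 and 31.5 in the MYRF KO libraries and 30.3 and 31.6 in the control libraries. The other 8 of the 12 highest were TRIM52, RAPGEF6 (a Rap exchange factor), ODAD1 (of the ciliary outer dynein arm), TRIM8, ANP32A, the start shared by MARF1 and NDE1 (a mitotic dynein regulator), STRADA (an activator of the kinase LKB1) and UBE3A (a ubiquitin ligase). Their distance to a FOS peak ran from 0.22 kb at MARF1 and NDE1 to 213 kb at ANP32A.

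Of the 6 weakest regions, 2 ranked low in all 4 libraries and 4 ranked low in some and near or above the middle of the list in others. At ADAM22, a synaptic membrane protein, the percentile was 0.28 and 71.1 in the MYRF KO libraries and 75.3 and 60.2 in the control libraries. MLF1 had 68.9 and 0.28 in the MYRF KO libraries and 1.86 and 81.0 in the control libraries. PLAU, the urokinase-type plasminogen activator, was touched at its stop end, with percentiles of 52.4 and 55.4 in the MYRF KO libraries and 0.16 and 50.1 in the control libraries. Presence in 4 lists rested here on 1 or 2 peaks near the lower edge of a list, spread over both clones. NID2, a basement membrane protein, was low in all 4 libraries, at 0.15 and 5.70 in the MYRF KO libraries and 20.9 and 28.5 in the control libraries. KRTAP3-1 had 5.17 and 4.71 in the MYRF KO libraries and 55.4 and 0.05 in the control libraries, with a MYRF peak 0.02 kb outside its region. SCPEP1, the lowest of all, was also low in all 4, at 20.9 and 4.71 in the MYRF KO libraries and 14.0 and 0.01 in the control libraries.

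Most factor-free gene-end regions were promoter regions, as were most constant gene ends with FOS or MYRF. RefSeq promoters gave a strand for 15841 of 20033 protein-coding genes, and 9074 factor-free regions touched only gene ends of known strand. Of these, 8613 (94.9%, Wilson 95% interval 94.4 to 95.4) lay within 1 kb of a gene start, and 461 (5.08%) lay at a stop only. Among gene ends with FOS, 2070 of 2377 (87.1%, 85.7 to 88.4) lay at a start and 307 (12.9%) at a stop only. Among those with MYRF, 721 of 802 (89.9%, 87.6 to 91.8) lay at a start. The interval of the factor-free start share overlaps neither of the others. These intervals cover counting over regions of these lists, not variation between cultures. Factor-free regions at a start had median percentiles of 82.4 and 78.9 in the MYRF KO libraries and 80.1 and 80.8 in the control libraries. Those at a stop only had 62.1 and 61.5 in the MYRF KO libraries and 61.3 and 63.4 in the control libraries, lower in 4 of 4 libraries.

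Divergent gene pairs were about as frequent as at gene ends with FOS. Of the 9074 factor-free regions, 851 (9.38%, 8.80 to 10.0) lay at the starts of 2 genes read in opposite directions, a median of 199 bp apart. Gene ends with FOS did so in 193 of 2377 cases (8.12%, 7.09 to 9.29), at a median of 178 bp, and these shares have overlapping intervals. The promoter of TCP1 shown above faces MRPL18, a mitochondrial ribosomal protein, across such a pair. Their shared region, chr6:159789823-159790404, had fold enrichments of 17.5 and 16.5 in the MYRF KO libraries and 19.4 and 18.6 in the control libraries. DPM1 faces MOCS3, of molybdenum cofactor synthesis, and their region reached 29.3 and 22.9 in the MYRF KO libraries and 24.6 and 33.1 in the control libraries. EXOSC8, of the RNA exosome, faces ALG5, of N-glycan precursor synthesis, at 22.7 and 17.8 in the MYRF KO libraries and 18.8 and 20.5 in the control libraries. The lowest percentile of these 3 regions in any library was 94.5, at TCP1 and MRPL18.

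Peak summits avoided the start base itself. In the 6588 factor-free regions with the start of 1 gene, the summit lay downstream, on the transcribed side, in 58.1% and 57.1% of regions in the MYRF KO libraries and in 57.1% and 57.7% in the control libraries. The median position was 175 and 180 bp downstream in the MYRF KO libraries and 172 and 179 bp in the control libraries. Summits piled up at 2 places, in the 50 bp bin centred 225 bp downstream and around 325 to 375 bp upstream. The downstream bin held 9.49% and 7.38% of regions in the MYRF KO libraries and 7.91% and 8.85% in the control libraries. The upstream maximum held 5.59% and 5.46% in the MYRF KO libraries and 5.57% and 5.71% in the control libraries. Between them, in a bin centred 25 or 75 bp upstream, only 0.273% to 0.379% of regions had their summit. In the 1499 comparable gene ends with FOS, the downstream share was 62.4% and 61.6% in the MYRF KO libraries and 61.1% and 61.3% in the control libraries, higher than in factor-free regions in 4 of 4.

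**Figure D2:**
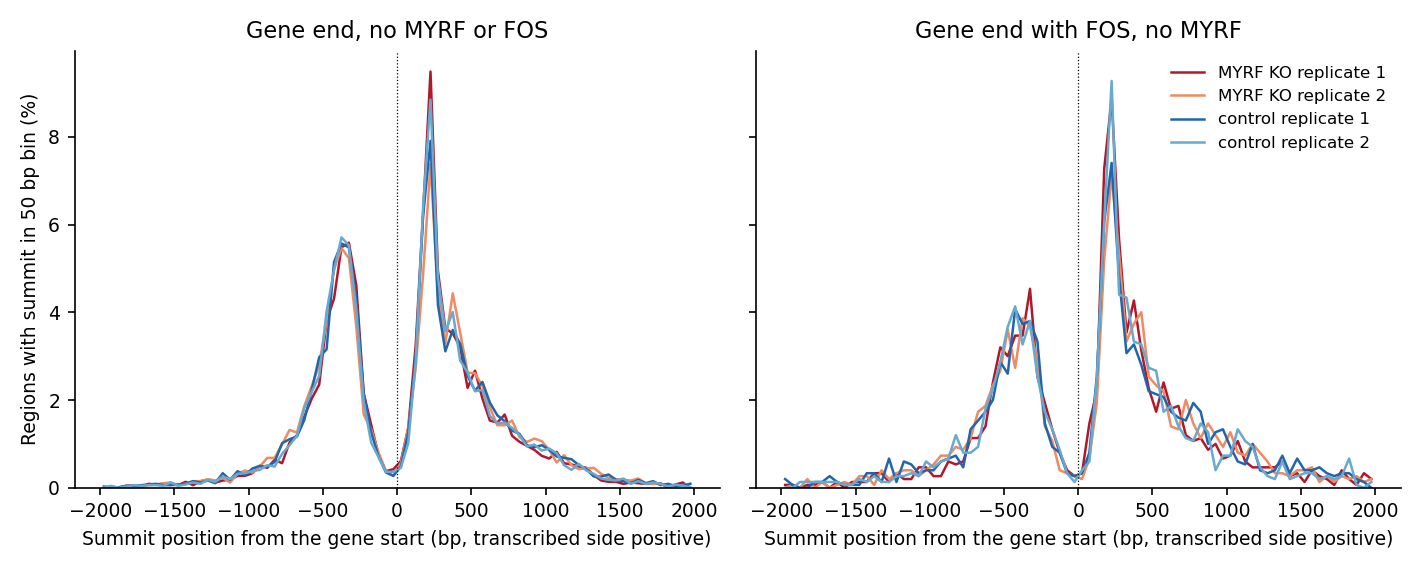
Share of regions (%) whose H3K27ac summit fell in each 50 bp bin around the gene start (bp, transcribed side positive), for factor-free gene ends with 1 gene start (left, n = 6588) and gene ends with FOS (right, n = 1499). Lines are the 4 libraries. Each shows a maximum centred 225 bp downstream, a lower one upstream and a trough at the start.

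Some gene starts lay in a gap between 2 factor-free regions. Of 7405 genes of known strand with a factor-free region at the start, 2614 (35.3%) had 2 or more there. Neighbouring factor-free regions under 1 kb apart made 3030 pairs, of which 934 had a gene start in the gap and the rest did not. In these 934 the median gap was 242 bp (interquartile range 155 to 399). The rule leaves little room for a factor peak there, since one wider than the gap would have overlapped a flank, and a FOS peak lay in 1 of the 934 gaps. ATF6B, from the lists, had 2 factor-free regions at its start. It is given for that number and not as an example of a start in a gap.

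FOS and MYRF peaks were mostly far from these regions. The rule removed every region that such a peak touched, so the distances and shares given here are partly set by it. The nearest FOS peak lay at a median of 20.1 kb and the nearest MYRF peak at 90.6 kb. Constant factor-free regions away from gene ends were closer to both, at 6.43 kb from FOS and 48.6 kb from MYRF. A FOS peak nevertheless lay within 1 kb of 1036 factor-free gene-end regions (9.10%), and a MYRF peak within 1 kb of 221 (1.94%). For constant factor-free regions away from gene ends these shares were 15.6% for FOS and 2.96% for MYRF. Examples with a FOS peak just outside were the proteasome ATPase gene PSMC4 at 0.1 kb, JUP (plakoglobin) at 0.2 kb, and RPL28 and TRIB3 at 0.3 kb. MUC1, a membrane mucin of pancreatic duct cells, had a MYRF peak 0.2 kb outside its factor-free region. Of 7592 genes whose constant gene-end regions were all factor-free, 135 (1.78%) still had a FOS peak within 1 kb of an end and 43 (0.566%) a MYRF peak. Of 2677 genes with a constant gene-end region but no factor-free one, 73.7% had a FOS peak there and 27.8% a MYRF peak. Among 7812 genes without a constant gene-end region the shares were 2.92% for FOS and 0.435% for MYRF.

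At the level of genes, 12221 protein-coding genes had a constant gene-end region under the length limit or over it, and 9544 of them (78.1%) had a factor-free one. For 7592 (62.1%) every such region was factor-free. The 27 gene lists below are read against those shares. The genes' starts of known strand carried the region in most listed genes, and 402 of the 9544 genes had it at the stop only, so that it can stand at a neighbour's start. RPS18 and FANCE were such cases, and the region of FANCE stood at the start of RPL10A.

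Lists of nucleic acid and mitochondrial upkeep had shares close to that of all genes or above it. Of 39 DNA replication genes with a constant region, 34 (87.2%) had a factor-free one, and 33 had nothing else, among them MCM2 to MCM7 of the replicative helicase and PCNA, the sliding clamp. The region of RFC2, a clamp loader subunit, had fold enrichments of 23.5 and 18.8 in the MYRF KO libraries and 20.7 and 19.4 in the control libraries. Of 34 RNA exosome and tRNA maturation genes 32 (94.1%) had a factor-free region, 29 of them nothing else, and EXOSC4 and RTCB were the other 2. Of 71 respiratory chain and ATP synthase genes 62 (87.3%) had one, led by ATP5ME, with 31.9 and 21.6 in the MYRF KO libraries and 27.7 and 37.9 in the control libraries. Mitochondrial ribosomal proteins stood at 62 of 72 (86.1%), aminoacyl-tRNA synthetases at 31 of 36 (86.1%), RNA polymerase II and its general factors at 35 of 41 (85.4%), and the anaphase-promoting complex and spindle checkpoint at 22 of 25 (88.0%). ANAPC7 led the last, with 27.2 and 28.1 in the MYRF KO libraries and 27.5 and 31.1 in the control libraries. Of 16 vacuolar ATPase genes, the proton pump of lysosomes, 15 (93.8%) had a factor-free region. Lists close to the 78.1% of all genes were translation initiation factors with 26 of 32 (81.2%), spliceosome core proteins with 31 of 39 (79.5%), the Mediator complex with 23 of 29 (79.3%), DNA repair with 33 of 42 (78.6%) and the nuclear pore complex with 21 of 27 (77.8%). The chaperonin and prefoldin list, with 10 of 15 (66.7%), lay below.

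Cytosolic ribosomal proteins and the proteasome had lower shares. A factor-free region stood at 54 of 75 ribosomal protein genes (72.0%), and 26 of the 75 had a constant region with MYRF, 34.7% against 9.77% of all genes. Of 31 proteasome genes 20 (64.5%) had a factor-free region, and 13 had one with FOS, 41.9% against 26.4% of all genes. The Wilson intervals of both factor-free shares, 61.0% to 80.9% and 46.9% to 78.9%, hold the share of all genes. Within these lists ADRM1 and RPL28 ranked among the strongest factor-free regions, RPL28 at 29.5 and 23.5 in the MYRF KO libraries and 23.1 and 34.5 in the control libraries.

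Genes of the secretory pathway, to which the study's title points, had shares on both sides of that of all genes. ER-associated degradation had a factor-free region in 22 of 25 genes (88.0%) and N-glycan precursor synthesis in 30 of 36 (83.3%), whereas ER chaperones and folding enzymes had one in 31 of 39 (79.5%), COPII and COPI coats in 20 of 27 (74.1%) and regulators of the unfolded protein response in 12 of 19 (63.2%). In that last list the constant gene-end regions of 8 genes were all factor-free (42.1%, against 62.1% of all genes). They included the ER stress sensors ERN1 (IRE1), EIF2AK3 (PERK) and ATF6B, the proteases MBTPS1 and MBTPS2 that cut ATF6, XBP1 (the factor whose RNA IRE1 splices), TRIB3 and CREB3L2. A constant region with MYRF stood at 6 of the 19 genes (31.6%, against 9.77% of all genes). Among them were ATF4, DDIT3, ATF5 and NFE2L1, stress-response transcription factors. These genes make up a list of 19 and were sorted by the rule itself, so the split is a description. XBP1 had fold enrichments of 18.9 and 15.7 in the MYRF KO libraries and 10.5 and 19.9 in the control libraries. TRIB3, a pseudokinase induced by ER stress, had 36.6 and 24.4 in the MYRF KO libraries and 23 and 31.5 in the control libraries. HSPA5 had 17.9 and 14.6 in the MYRF KO libraries and 19.2 and 24.3 in the control libraries, with a FOS peak 0.5 kb away. P4HB, a protein disulfide isomerase, had 21.3 and 21.4 in the MYRF KO libraries and 26.8 and 25.6 in the control libraries.

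Lists of epithelial identity had shares below that of all genes, though their Wilson intervals hold it. By the rule, any other constant gene-end region is long or holds a factor. Keratins, claudins and desmosome genes had a factor-free region in 15 of 24 genes (62.5%). A region of 6000 bp or more stood at 7 of them (29.2%, against 3.58% of all genes) and one with FOS at 9 (37.5%, against 26.4% of all genes). KRT7 and KRT19 had only such a long region, whereas CDH1 (E-cadherin), DSP and DSG2 had only factor-free ones. DSG2, desmoglein, reached 30.6 and 25.7 in the MYRF KO libraries and 23.1 and 31.9 in the control libraries. Mucins and surface glycoproteins stood at 14 of 21 (66.7%), and epithelial and foregut transcription factors at 10 of 17 (58.8%), among which GRHL2, which activates genes of epithelial junctions, had 22.3 and 20.2 in the MYRF KO libraries and 20.5 and 32.5 in the control libraries. AP-1 subunits stood at 8 of 13 (61.5%), but 2 had no other class (15.4%, against 62.1% of all genes). A region with FOS stood at 8 of the 13 (61.5%, against 26.4% of all genes), FOS and JUN among them. Of markers of other cells, 9 of 19 mesenchymal genes had a constant region, beside 12221 of 20033 genes in all, and 6 a factor-free one, ZEB1 at 9.0 and 7.7 in the MYRF KO libraries and 9.4 and 9.1 in the control libraries. Of 18 acinar genes 3 had a constant region, each a factor-free one. Shares of 16 of the 27 lists were above that of all genes. No test was made of any list, and the interval of 1 list, RNA exosome and tRNA maturation, did not reach the share of all genes.

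**Figure D3:**
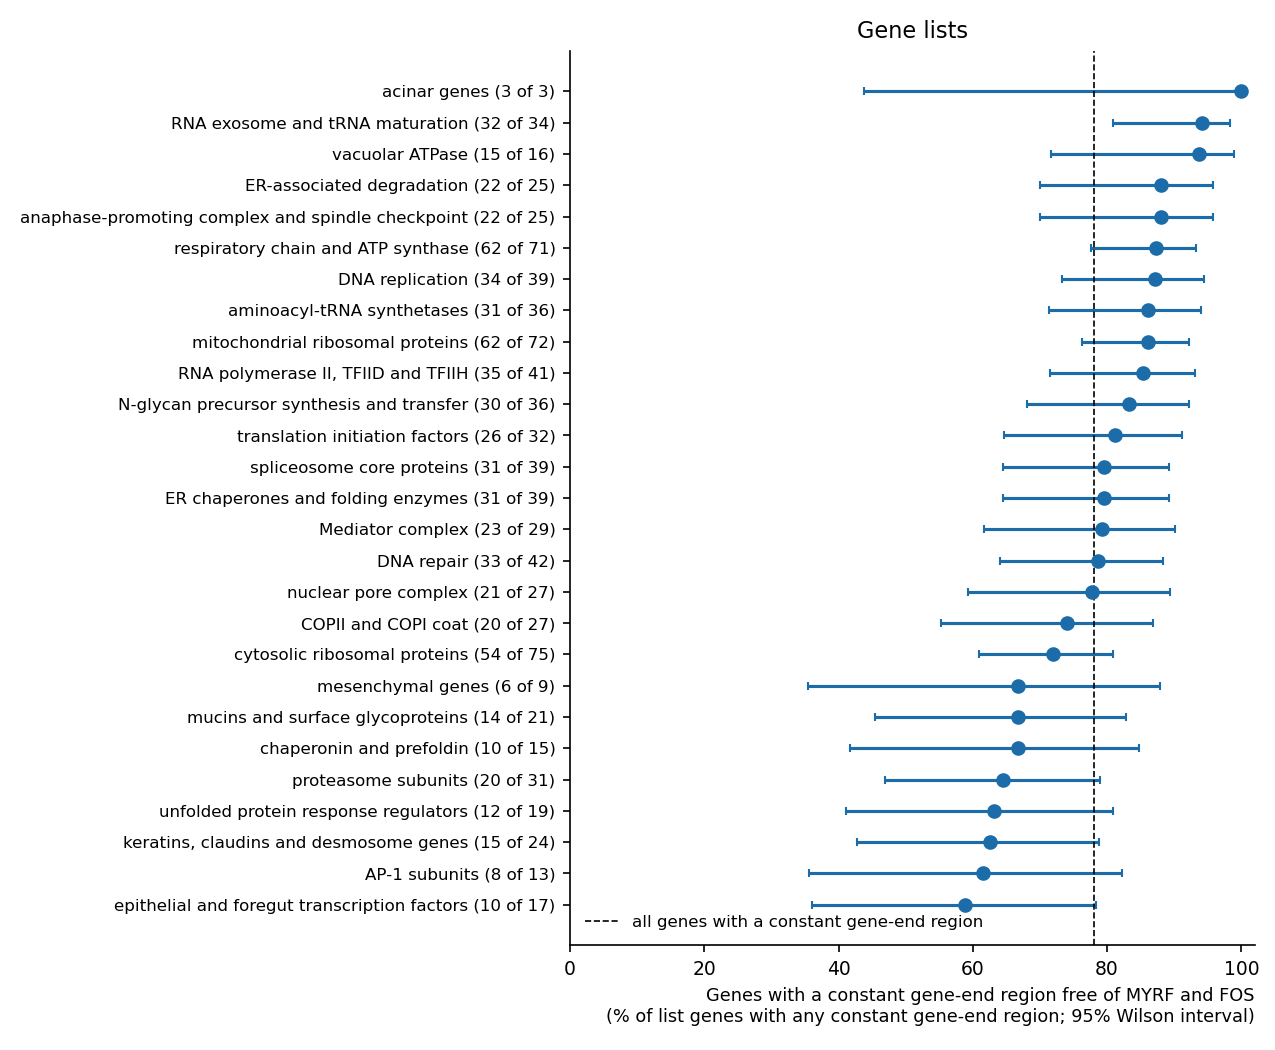
Share of each list's genes with a constant gene-end region that had a factor-free one (%), with the counts beside each name. Bars are Wilson 95% intervals over genes and the dashed line is the share of all genes, 78.1%. Nucleic acid and mitochondrial lists lie mostly right of the line and epithelial lists left of it.

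The promoters were CpG-rich and nearly equal in composition to those with FOS. RefSeq gave the 300 bases of 6094 protein-coding genes with only factor-free constant regions at their start, of 2164 with FOS and no MYRF, of 834 with MYRF and of 5233 with no H3K27ac region of any library within 1 kb of the start. Median GC content was 66.0% at factor-free starts, 65.7% with FOS, 63.0% with MYRF and 54.7% with no region. The ratio of observed to expected CpG had a median of 0.855 at factor-free starts, 0.848 with FOS, 0.835 with MYRF and 0.331 with no region. It was 0.6 or more in 87.6% of factor-free promoters, 85.4% with FOS, 84.2% with MYRF and 29.9% with no region. The promoter of KRTAP3-1, which lies outside the weak region of that gene, had a ratio of 0.167, and that of ADRM1 one of 0.959 at 73.7% GC. These are single promoters. From the lowest to the highest of the 3 groups by rank given below, the median ratio ran only from 0.832 to 0.876. DPM1 and ANAPC7 had as little as 46.3% and 47.3% GC with ratios of 1.07 and 0.893.

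**Figure D4:**
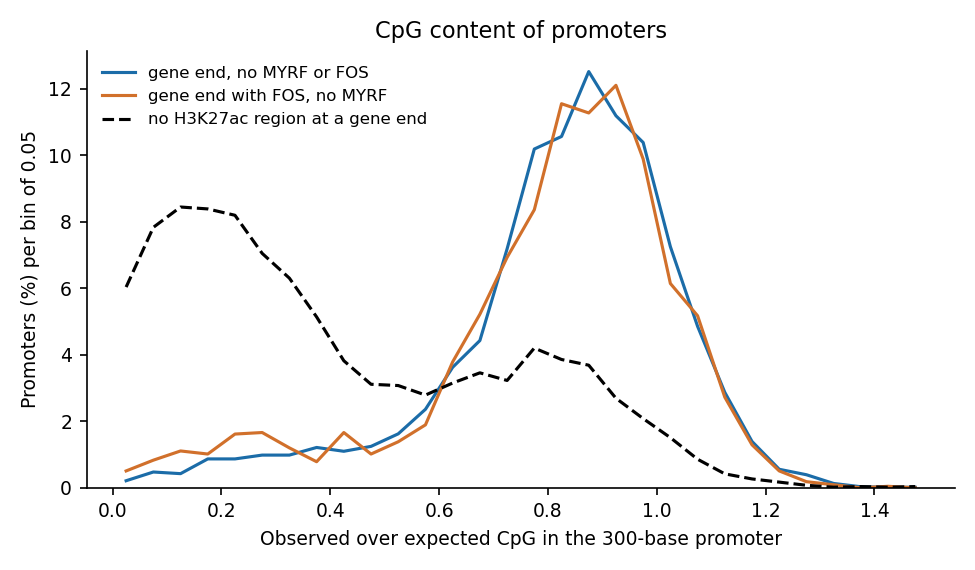
Distribution of the observed over expected CpG ratio in the 300-base promoters of genes with factor-free gene ends (n = 6094), of genes with FOS (n = 2164) and of genes with no H3K27ac region at the start (n = 5233), as a percentage of promoters per bin of 0.05. The first 2 curves lie over each other with medians of 0.855 and 0.848, and the dashed curve has its median at 0.331.

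Between factor-free promoters and those with FOS, the letters of AP-1 differed by the largest ratio of the 13 motifs. The rule sorted these classes by FOS peaks, and FOS is a subunit of AP-1, so this difference is a description of the sorting and no separate result. TGANTCA, searched on both strands like the other motifs, was in 142 of 6094 factor-free promoters (2.33%, Wilson 95% interval 1.98 to 2.74) and in 210 of 2164 with FOS (9.70%, 8.53 to 11.0). It was in 5.28% with MYRF, in 7.97% with no region and in 5.76% of all 15859 protein-coding promoters. Its N admits any base, so the letters include more than AP-1 sites. HSPA5 is a factor-free promoter with these letters and MED17 one with FOS. Both hold A or T at the N, not the C or G of the AP-1 site given above, and those of HSPA5 lie outside its factor-free region. The MED17 region had fold enrichments of 15.6 and 16.2 in the MYRF KO libraries and 16.3 and 19 in the control libraries. The MYRF letters CTGGCAC were in 4.50% of factor-free promoters (4.0 to 5.05), 4.07% with FOS and 6.95% with MYRF (5.42 to 8.89), against 5.23% of all protein-coding promoters. CTGGTAC was in 1.43% of factor-free promoters, 0.832% with FOS and 2.16% with MYRF, against 1.54% of all protein-coding promoters.

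ETS letters were in 22.4% of factor-free promoters (21.4 to 23.5), 18.2% with FOS (16.6 to 19.9), 22.3% with MYRF, 3.54% with no region and 14.2% of all protein-coding promoters. YY1 letters were in 7.14% of factor-free promoters (6.52 to 7.81), 5.68% with FOS (4.78 to 6.74), 0.898% with no region and 4.50% of all protein-coding promoters. NRF1 letters were in 6.28% (5.70 to 6.92), 5.64% with FOS (4.74 to 6.69), 1.61% with no region and 4.26% of all protein-coding promoters. The GC box, which GC-rich sequence holds by composition alone, was in 73.8% of factor-free promoters, 71.1% with FOS, 33.8% with no region and 58.5% of all protein-coding promoters. The CCAAT box was in 37.9% of factor-free promoters, 37.1% with FOS, 35.9% with no region and 36.4% of all protein-coding promoters. TATA box letters (TATAAA) were in 4.86% of factor-free promoters, 5.27% with FOS, 17.6% with no region and 9.62% of all protein-coding promoters. They leave out forms such as TATAAG, and their place in the promoter was not used. The cyclic AMP response element TGACGTCA was in 3.50% of factor-free promoters and 3.37% with FOS, the E-box CACGTG in 10.9% of factor-free promoters and 10.4% with FOS, the ZBTB33 palindrome in 2.74% of factor-free promoters and 2.59% with FOS, and ZNF143 letters (ACTACAA) in 3.91% of factor-free promoters and 4.02% with FOS. Of the 13 motifs, 10 were more frequent in factor-free promoters than in those with FOS, and the intervals of AP-1 and ETS alone did not overlap between these classes. A match is a run of letters, not a bound site.

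**Figure D5:**
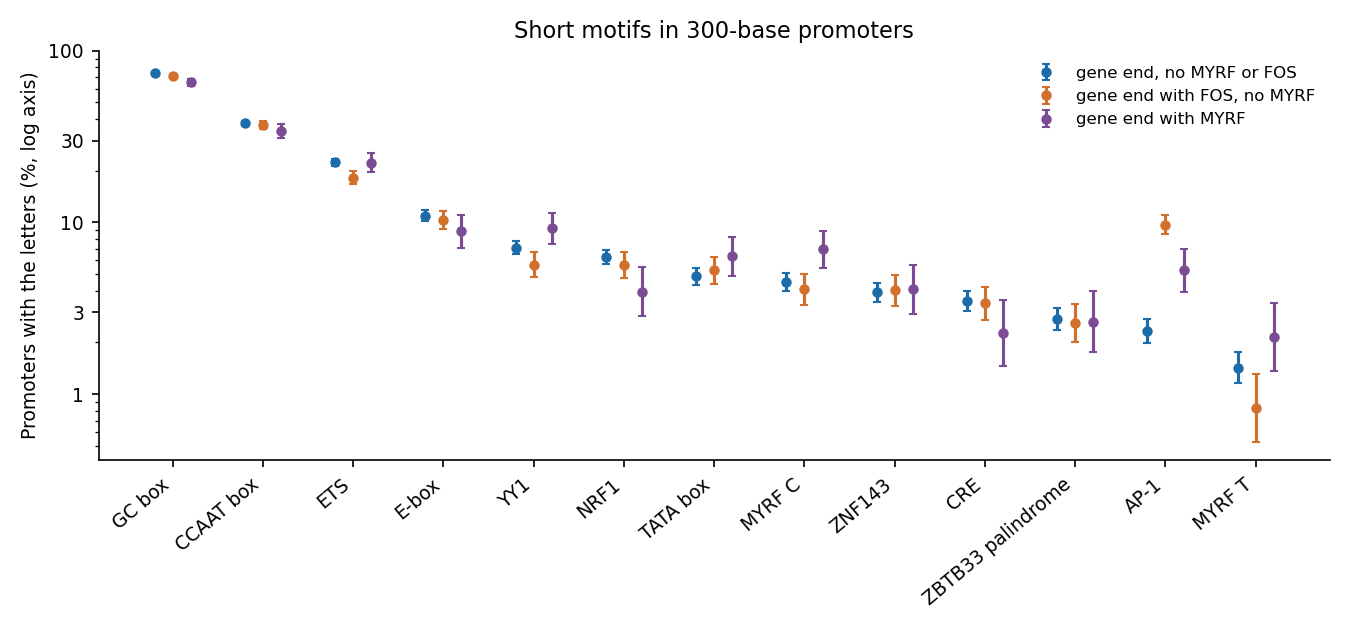
Share of 300-base promoters (%, log axis) that hold each of 13 short motifs on either strand, at factor-free gene ends (n = 6094), gene ends with FOS (n = 2164) and gene ends with MYRF (n = 834). Bars are Wilson 95% intervals. AP-1 letters stand at 2.33%, 9.70% and 5.28%, and ETS letters at 22.4%, 18.2% and 22.3%.

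Some letters were more frequent where the acetylation ranked higher. Factor-free promoters were ordered by the lowest of the 4 percentiles of their region and divided into 3 groups of 2039, 2023 and 2032, given here from the lowest to the highest rank. ETS letters were in 17.4%, 24.3% and 25.6%, YY1 letters in 5.39%, 7.32% and 8.71%, and NRF1 letters in 4.71%, 6.57% and 7.58%. The median CpG ratio was 0.832, 0.859 and 0.876, so CpG content moved in the same order and its part was not tested. GC box letters showed no such order, at 73.2%, 75% and 73.1%, and AP-1 letters were in 2.84%, 2.13% and 2.02%.

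Between the clones the factor-free regions took up like parts of the acetylated genome. They made up 15.6% and 14.5% of all bases under H3K27ac peaks in the MYRF KO libraries and 13.7% and 14.7% in the control libraries. The groups overlapped, and the difference of 0.832 percentage points gave p = 0.667 in an exact two-sided permutation test, in which 2 against 2 libraries cannot go below 0.333. It was 0.257 points without MYRF KO replicate 1, 1.46 without MYRF KO replicate 2, 0.392 without control replicate 1 and 1.32 without control replicate 2. They held 13.1% and 13.2% of all peaks in the MYRF KO libraries and 12.4% and 13.0% in the control libraries. The covered total was 87.9 and 92.9 Mb in the MYRF KO libraries and 100.5 and 95.2 Mb in the control libraries, of which factor-free regions held 13.7 and 13.4 Mb in the MYRF KO libraries and 13.8 and 14.0 Mb in the control libraries.

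Region by region, 2253 of 11388 (19.8%) were covered less in both MYRF KO libraries than in both control libraries, beside 23.8% of all 52654 constant regions under the length limit. Covered more in both MYRF KO libraries were 1548 (13.6%), beside 11.1% of all. The regions with the largest separation were named by the size of the difference, with no test. TRAM1, of the ER translocon, had 756 and 260 bp covered in the MYRF KO libraries and 1852 and 2020 bp in the control libraries. The stop end of F3, tissue factor, had 400 and 314 bp in the MYRF KO libraries and 1220 and 1123 bp in the control libraries, and PGF, a placental growth factor, had 597 and 609 bp in the MYRF KO libraries and 1623 and 1581 bp in the control libraries. The other 3 covered less in the MYRF KO clone were the region of GPR137C and TXNDC16, the start of IDS and an end of ANKRD35. In the other direction, GLI2, a transcription factor of Hedgehog signalling, had 2344 and 2416 bp covered in the MYRF KO libraries and 297 and 722 bp in the control libraries. MYO1D, a class I myosin, had 998 and 826 bp in the MYRF KO libraries and 300 and 261 bp in the control libraries. KLHL31, PSMG3, INPP5B and TLR5 (the flagellin receptor) followed.

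Regions on either side of the limits of the rule are given as a description. The 3 factor-free regions just under the length limit stood at SLC6A14, an amino acid transporter (5998 bp), NUAK2, a kinase (5982 bp), and GPX2, a glutathione peroxidase (5974 bp). Just over it without either factor were ARPC2 (6030 bp), PDZD8 (6057 bp) and KCTD4 (6061 bp). SLC6A14 had fold enrichments of 18.3 and 9.46 in the MYRF KO libraries and 14.2 and 14.4 in the control libraries, and ARPC2, of the actin-nucleating complex Arp2/3, had 30.1 and 18.3 in the MYRF KO libraries and 21.0 and 24.7 in the control libraries. In all, 59 gene-end regions of 6000 bp or more held neither factor. The factor-free regions farthest from their gene end included those of RPS6KA4 and LIPT2, and TENT4B, TJP3 and ANKS1A were just outside the window. RPS6KA4 had percentiles of 67 and 63.6 in the MYRF KO libraries and 60.0 and 63.9 in the control libraries, and TENT4B had 69.2 and 71.1 in the MYRF KO libraries and 68.1 and 57.4 in the control libraries.

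Most factor-free regions belonged to 1 gene, 9169 of 11388 (80.5%), and 2103 touched 2 and 116 more than that. The most, 23, was a region at the shared stop end of the protocadherin gamma cluster and DIAPH1, with percentiles of 70.4 and 77.7 in the MYRF KO libraries and 66.7 and 76.0 in the control libraries. The starts of POLR2A, the largest subunit of RNA polymerase II, and ZBTB4 shared a region at 24.2 and 19.2 in the MYRF KO libraries and 22.6 and 25.4 in the control libraries. By chromosome, the share of genes with a constant gene end that had a factor-free one ran from 65.6% on chromosome 14 to 87.0% on chromosome 18 among the autosomes, and it was 86.6% on the X.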

How the data were processed

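The 10 deposited peak lists, 2 libraries for each of 5 groups, were used; 1 HPAF2 input sample was not analysed here. The submitters' processing notes name MACS2 2.1.0.20150731, Trimmomatic 0.38, Bowtie2 2.2.6 and SAMtools as tools and GRCh38 as the build. Per the labels, cells were fixed in 1% formaldehyde for 10 min. In the deposited lists each peak carries a fold enrichment (a ratio over local background), a -log10 p, a -log10 q that starts just over 1.30 and a score that is 10 times the -log10 q. The control behind the CFPAC1 folds is not given in the sources used here, so folds were used only to rank peaks within a list. Lists were compared by presence and covered length. No read counts are given, so depth is unknown.

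Members, lists, motifs and tests were chosen with earlier results of these data known. Regions were merged, classed and measured in Python 3.11.15 with pandas 2.3.3 and scipy 1.17.1, and overlaps of at least 1 bp counted. Merging and overlap code was tested on simulated data. Gene ends, names and promoters came from RefSeq tables of GRCh38.p14; the promoter table gives the strand, and genes without an entry in it, chromosome 8 among them, were not used for starts, summits or motifs. Library differences were tested by exact sign-flip and permutation tests. Shares carry Wilson 95% intervals, which cover counting over regions, genes or promoters only. The named regions are the 12 highest and 6 lowest by the lowest of 4 percentiles, the highest genes of each list, those nearest each limit, the 6 with the largest clone separation in each direction and the 6 touching most genes. Other genes were named after their values were seen, and some items that the rule selects are not reported here. Alternatives covered the overlap, reproducible factor peaks, a stricter -log10 q, length, window, merging gap, gene starts and leaving out each library.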

Additional observations from a re-analysis of the deposited data

How the results depend on the processing

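Across 14 alternatives each (of which the comparison of regions of 1000 to 2000 bp was chosen after seeing the data), the rank, length and clone-share differences kept their direction and their side of the threshold, which these designs cannot pass. The number of factor-free regions ran from 7825 (-log10 q of at least 10) to 12697 (only MYRF and FOS peaks of both libraries), and was 8512 with peaks within 200 bp merged. The rank difference from gene ends with FOS ran from -10.5 to -2.18 points and was smallest among regions of 1000 to 2000 bp, where the length difference was -95.5 bp. The rank difference from regions away from gene ends ran from 13.5 (-log10 q of at least 10) to 24.4. The share at a gene start was 97.4% at a -log10 q of at least 10, 95.7% with a window of 500 bp, 93.4% with 2000 bp, 100% by construction when only starts were used, and 94.4% to 94.7% leaving out each library. The clone difference in covered share was 0.257 points without MYRF KO replicate 1, 0.392 without control replicate 1, 1.46 without MYRF KO replicate 2 and 1.29 at a -log10 q of at least 10. With the replicate number as a block it was 0.832 points (exact p = 1), the pairs giving 1.87 and -0.205, and nothing in the labels pairs the numbers. Of the 27 lists 16 or 17 were above the share of all genes under both alternatives tried. With motifs sought on the gene's strand only, 9 of 13 were more frequent at factor-free starts than with FOS. Depth is unknown, so a factor peak too weak to be called cannot be told from none.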

Other observations

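Gene families outside the lists, looked at after values had been seen, differed widely in how many ends were acetylated at all. Of 517 genes with a ZNF symbol, mostly zinc finger repressors, 374 had a constant gene-end region, and 309 of these (82.6%) had a factor-free one, beside 12221 of 20033 genes in all with a constant region and 78.1% of those with a factor-free one. On chromosome 19, where many of them lie in clusters, 141 of 162 (87.0%) had a factor-free region and 140 had no other kind. Of 69 replication-dependent histone genes, 59 had a constant region and 40 of these (67.8%) a factor-free one, with a median lowest percentile of 88.2 against 76.9 for all genes with a factor-free region. Of 392 olfactory receptor genes 2 had a constant gene-end region, and both were factor-free. No test was made of these counts.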
